A study of Mus musculus with 6 samples.

Results

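Lysosomal glycosidases, the enzymes that take sugars off glycoproteins, glycolipids and glycogen inside lysosomes, were followed in cardiomyocytes of wild-type and H19 knockout mice. The 8 genes were Manba, Man2b1, Man2b2, Glb1, Hexa, Gaa, Gla and Gusb, taken as the non-control rows whose gene name in the array files equals one of them. They had 11 probes among 55681 in the files, and all 8 were among the 21888 genes tested. They were chosen by the difference between the genotypes itself: Manba was picked because it was high in the knockout, and the 7 others were set beside it to see whether it changed alone. The values of Manba below are therefore a description with no test of their own.

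The study asked which mRNAs change in cardiomyocytes without H19, an imprinted long non-coding RNA. Adult H19 knockout mice and wild-type littermates both underwent transverse aortic constriction (TAC), a banding of the aorta that loads the left ventricle with pressure. Cardiomyocytes were isolated by retrograde perfusion 6 weeks later, and total RNA of 3 samples per genotype was read on 1-colour Agilent arrays. The labels do not describe the H19 allele or say that each array is 1 mouse, so each p-value speaks only to how far these samples spread, which may be technical. Both groups compared here are banded.

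Manba encodes the lysosomal beta-mannosidase, which removes the last beta-linked mannose from the core of N-glycans, and its loss causes beta-mannosidosis. Man2b1 and Man2b2 encode alpha-mannosidases that act on the same N-glycans before it. The other enzymes act on other sugars: Glb1 on beta-galactose, Gla on alpha-galactose, Hexa on N-acetylhexosamine of gangliosides, Gusb on glucuronic acid and Gaa on glycogen, whose storage in the heart is a feature of Pompe disease.

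The whole result on Manba rests on 1 probe, read by 1 spot on each array. Its sequence is shown because no second Manba probe was in the files to set against it.
Manba probe, chr3:135234096-135234155 of mm9, plus strand: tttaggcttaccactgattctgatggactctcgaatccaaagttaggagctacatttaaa
No other probe shared 20 or more of its bases in a row on either strand. The longest run in common was 14 bases, with a probe of a non-coding interval. The exon or UTR it lies in was not analysed here.

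Many lysosomal genes carry the palindrome CACGTG near their start, part of the motif bound by TFEB, a transcription factor of lysosomal genes. The promoters of all 8 genes were taken from RefSeq (GRCm38.p6), from 250 bases before to 50 bases after the start, and searched on both strands for CACGTG and for TCACGTG, which contains it. Manba's promoter is shown beside the 3 that held a match, since these differ in that letter sequence. Capitals mark the matches.
Manba, chr3:135485361-135485660, plus strand: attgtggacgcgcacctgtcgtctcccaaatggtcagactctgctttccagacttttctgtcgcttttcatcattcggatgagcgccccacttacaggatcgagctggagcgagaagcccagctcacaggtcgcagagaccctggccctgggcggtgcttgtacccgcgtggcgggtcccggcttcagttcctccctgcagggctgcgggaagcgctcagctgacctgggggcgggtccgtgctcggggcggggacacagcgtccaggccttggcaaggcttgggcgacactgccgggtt
Glb1, chr9:114400828-114401127, plus strand: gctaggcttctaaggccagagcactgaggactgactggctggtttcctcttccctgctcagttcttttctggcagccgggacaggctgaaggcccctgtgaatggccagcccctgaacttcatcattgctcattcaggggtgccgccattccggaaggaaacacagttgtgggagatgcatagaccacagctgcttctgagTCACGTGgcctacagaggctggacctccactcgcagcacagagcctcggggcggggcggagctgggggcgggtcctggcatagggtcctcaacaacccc
Gaa, chr11:119267713-119268012, plus strand: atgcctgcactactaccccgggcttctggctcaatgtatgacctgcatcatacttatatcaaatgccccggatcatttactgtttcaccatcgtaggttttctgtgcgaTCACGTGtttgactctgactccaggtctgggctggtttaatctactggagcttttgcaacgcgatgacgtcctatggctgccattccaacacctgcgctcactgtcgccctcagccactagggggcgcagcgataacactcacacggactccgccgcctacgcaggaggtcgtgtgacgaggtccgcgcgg
Gla, chrX:134600956-134601255, minus strand: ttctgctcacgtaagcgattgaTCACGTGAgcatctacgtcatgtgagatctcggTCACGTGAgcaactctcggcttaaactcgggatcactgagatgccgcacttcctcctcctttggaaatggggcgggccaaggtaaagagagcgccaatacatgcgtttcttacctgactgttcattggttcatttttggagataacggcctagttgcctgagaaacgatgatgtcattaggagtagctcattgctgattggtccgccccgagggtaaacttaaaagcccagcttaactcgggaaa
Glb1 held 1 match, 48 bases before the start, Gaa held 1, 140 bases before it, and Gla held 2, at 227 and 194 bases before it. Each of these CACGTG matches was also a TCACGTG match. Neither string was in the windows of Manba, Man2b1, Man2b2, Hexa or Gusb. CACGTG was found in 7.15% of the 32851 promoters in the table and TCACGTG in 3.77%. Of the genes in the lysosomal and mannosidase lists described below, 65 had a promoter in the table. Of these 65, 16 held a match in any of their promoters. This count is by gene and the shares above are by promoter, so they differ in unit. A match is a description of letters and not of binding.

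The arrays fit their labels in the H19 transcript. H19 stood at 1.41, 0.46 and 0.53 in the wild-type arrays and at -5.97, -6.72 and -6.28 in the knockout arrays, as log2 of the signal after dividing by each array's 75th percentile, and was well above background on 0 of 3 knockout arrays. The 75th percentile of the signal ran from 774 to 1152, and 48.8% to 58.6% of spots were well above background. All 9 cardiomyocyte markers were tested, and their summed linear signal was 1957 to 2092 in wild type and 1707 to 1962 in the knockout. At an adjusted p under 0.05 in limma 7 of the 21888 genes differed, which is 0.032%. Of these, 6 fell in the knockout and 1, Manba, rose (0.00457% of all genes).

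Manba was higher in every knockout array than in any wild-type array. In wild-type arrays 1, 2 and 3 its scaled log2 signal was 0.51, 0.62 and 0.85, and in knockout arrays 1, 2 and 3 it was 2.96, 2.57 and 2.68. The lowest knockout value was 1.73 above the highest wild-type value. Before scaling, the processed intensity of the spot was 1104 to 1685 in wild type and 5897 to 7457 in the knockout, and the spot was well above background on all 6 arrays. The means were 0.66 ± 0.17 (SD, n = 3) and 2.74 ± 0.20 (SD, n = 3), a difference of 2.08 (SE 0.17, 95% interval 1.67 to 2.49), or 4.23-fold. In bulk RNA, more cells of a type and more RNA per cell cannot be told apart.

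The adjusted p of Manba in limma was 0.0466, in the same contrast by which it was chosen. It ranked 2 of 21888 genes by p, after H19, and 11 by the size of the rise. On the slide that held replicate 1 of each genotype the difference was 2.45, and on the slide with replicates 2 and 3 it was 1.90. With slide as a block limma's adjusted p was 0.127 at the same difference, and with no filter on dim probes it was 0.166. Without wild-type array 1, 2 or 3 it was 0.102, 0.228 or 0.0421, and without knockout array 1, 2 or 3 it was 0.367, 0.227 or 0.297. The difference stayed between 1.97 and 2.17 in these fits, with an SE of 0.17 to 0.22, and Manba ranked 3 to 8 by p. An adjusted p depends on the p-values of the other genes too. Manba passed the adjusted threshold in limma in 9 of 17 alternative settings, with quantile normalization and the deposited values counted apart.

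**Figure D1:**
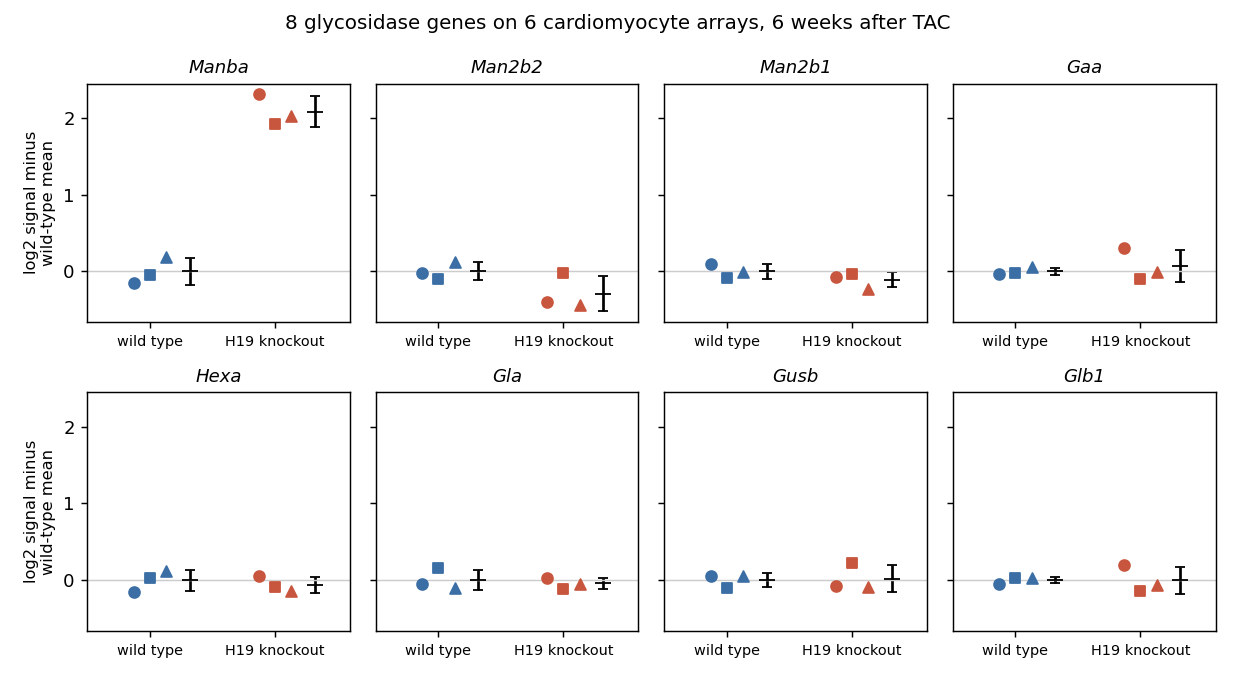
Log2 signal of each of the 8 genes minus its wild-type mean, for 3 wild-type arrays (blue) and 3 H19 knockout arrays (red); circles, squares and triangles are replicates 1, 2 and 3, and black bars give the mean ± SD. The knockout arrays of Manba all stand above its wild-type arrays, while the groups of the 7 other genes overlap.

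The alpha-mannosidases, which act on the same glycans, did not pass the test. Man2b1, the main acid alpha-mannosidase of the lysosome, stood at 3.12, 2.93 and 3.02 in wild-type arrays and at 2.95, 2.99 and 2.80 in knockout arrays. The groups overlapped and differed by -0.11 (SE 0.14, 95% interval -0.45 to 0.23). Man2b2, an alpha-mannosidase that acts on the N-glycan core, stood at 0.04, -0.03 and 0.20 in wild type and at -0.34, 0.05 and -0.37 in the knockout. Knockout arrays 1 and 3 lay below every wild-type array and knockout array 2 lay among them. The difference was -0.29 (SE 0.17, 95% interval -0.70 to 0.12), the largest among the 7 others, with an adjusted p of 0.731 in limma.

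Among the galactosidases, Glb1, which removes beta-galactose from gangliosides and keratan sulfate, stood at -0.08, -0.01 and -0.01 in wild type and at 0.16, -0.17 and -0.09 in the knockout. The knockout arrays lay on both sides of the wild-type arrays, and the means differed by -0.00 (SE 0.15, 95% interval -0.36 to 0.36). Gla, the alpha-galactosidase lost in Fabry disease, stood at 6.05, 6.25 and 6.00 against 6.13, 5.99 and 6.05. These groups also overlapped, with a difference of -0.04 (SE 0.15, 95% interval -0.39 to 0.30). Both of these genes held the CACGTG match printed above.

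Hexa, the alpha subunit of beta-hexosaminidase, whose loss causes Tay-Sachs disease, stood at 3.18, 3.36 and 3.44 in wild type and at 3.38, 3.23 and 3.18 in the knockout. The groups overlapped, with a difference of -0.06 (SE 0.15, 95% interval -0.42 to 0.29). Gaa, acid alpha-glucosidase, was measured at 5.87, 5.88 and 5.96 in wild type and at 6.21, 5.81 and 5.90 in the knockout. Knockout array 1 was the highest of the 6, knockout array 2 the lowest, and knockout array 3 lay among the wild-type arrays. The difference was 0.07 (SE 0.16, 95% interval -0.31 to 0.45). A second Gaa probe also differed by 0.07 (SE 0.19). The third Gaa probe was well above background on 0 arrays.

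Gusb, beta-glucuronidase, has the most spots of the 8 genes, since its probe is printed in 10 spots on each array. Its mean was 1.498, 1.336 and 1.494 in wild type and 1.366, 1.672 and 1.355 in the knockout. Spots of one array differed by an SD of 0.07 to 0.10, while arrays of one genotype differed by an SD of 0.09 in wild type and 0.18 in the knockout. The genotypes overlapped and differed by 0.02 (SE 0.16, 95% interval -0.35 to 0.39), and the second Gusb probe differed by 0.04 (SE 0.16).

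Of the 8 genes, 1 passed the adjusted threshold, against 0.032% of all genes tested in either direction and 0.00457% in its own. Nothing can be read from that because Manba was chosen by the same contrast. Of the 7 others 0 passed in limma, and 0 had an unadjusted p under 0.05. Their arrays overlapped between the genotypes in 7 of 7, against 10.5% of all genes in which they did not overlap. Of these 7 genes 2 were nominally higher (28.6%, against 36.3% of all genes tested) and 5 lower. Their median difference was -0.04, beside a median of -0.06 over all genes tested. Their 95% intervals ran from -0.70 at the lowest to 0.45 at the highest. A rise of the size of Manba's lay outside each interval, but Manba was chosen for that rise. Scaled to the median of all probes in place of the 75th percentile, the median over all genes moved to 0.36 and that of the 7 others to 0.38, with all 7 then nominally higher and Manba at 2.51. This change of scaling moves every gene by the same amount, so it cannot alter where the 7 others stand relative to all genes.

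**Figure D2:**
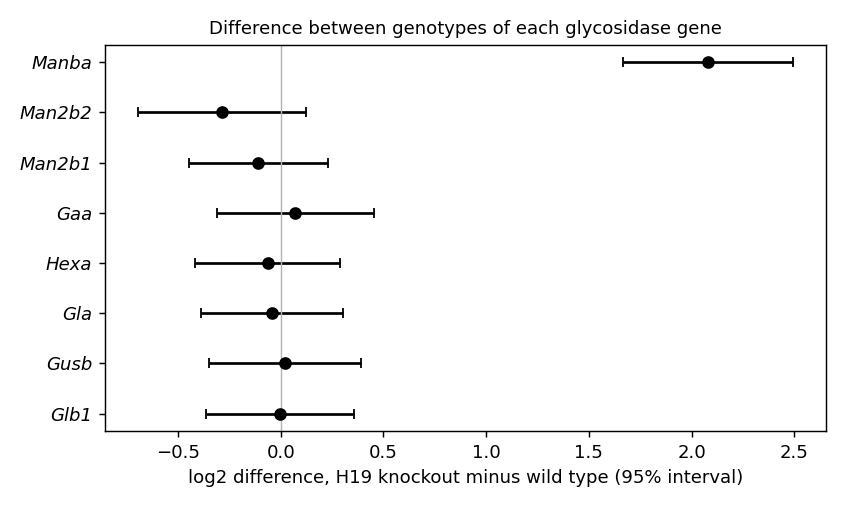
Log2 difference of each gene, H19 knockout minus wild type, with its 95% interval from limma (3 arrays per genotype). The interval of Manba runs from 1.67 to 2.49, and those of the 7 other genes all include 0 and end at or below 0.45.

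The rest of the lysosomal machinery was described through 9 lists with 81 genes, all of them tested. In limma 0 of the 81 passed the adjusted threshold and 0 had an unadjusted p under 0.05; the lowest adjusted p was 0.648. Of the 81 genes 46 were nominally higher (56.8%, against 36.3% of all genes tested) and 35 lower. Their median was 0.01, and 73 of them differed by less than 0.2 in size. By slide, the median of the 81 genes was 0.18 with replicate 1 and -0.06 on the other slide. Over all genes tested it was -0.02 and -0.13. Over both slides together the median of all genes tested was -0.06. It moved to -0.18 with no filter on dim probes and to -0.04 with probes well above background on all arrays. The part of dim probes in the share of 36.3% was not tested. All 81 genes had an upper bound at or below 1.02. The arrays did not overlap between the genotypes in 3.70% of them, against 10.5% of all genes tested.

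The 12 other lysosomal glycosidases had a median difference of -0.02, with 6 nominally higher. Hpse, heparanase, differed by -0.67 (SE 0.42), which came from knockout array 1 at -4.59, while knockout arrays 2 and 3 stood at -3.05 and -3.07 among wild-type values of -2.65, -3.11 and -2.93. Naglu, which acts on heparan sulfate, differed by -0.14 (SE 0.15), and Hyal1, a hyaluronidase, by -0.20 (SE 0.22). The groups overlapped in all 3 of these genes.

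Genes that work beside the glycosidases had list medians close to 0 as well. The 8 genes of lysosomal sulfatases and their partners had a median of 0.04. The sulfatases Arsa, Galns and Sgsh differed by 0.16 (SE 0.18), -0.09 (SE 0.19) and 0.07 (SE 0.18), and Hgsnat, an acetyltransferase of heparan sulfate breakdown, by -0.09 (SE 0.15). Among the 4 activators and partners, whose median was 0.01, Psap, the precursor of the saposins, differed by 0.11 (SE 0.22), and Ctsa, which protects Glb1 and the sialidase in a complex, by -0.03 (SE 0.17). Gm2a, the activator that presents gangliosides to hexosaminidase, differed by -0.09 (SE 0.21), and Scarb2, a lysosomal membrane protein, by 0.05 (SE 0.19). The 9 other hydrolases had a median of 0.03, with Lgmn, legumain, at -0.21 (SE 0.17), Asah1 at 0.12 (SE 0.14), Tpp1 at -0.06 (SE 0.16) and Lipa at 0.06 (SE 0.18).

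Glycosidases reach the lysosome through a mannose 6-phosphate tag, and the 6 genes of tagging and sorting had a median of 0.00. Gnptab, which starts the tag, differed by -0.19 (SE 0.17), Nagpa, which uncovers it, by 0.12 (SE 0.16), and the sorting receptors M6pr and Sort1 by 0.00 (SE 0.19) and 0.05 (SE 0.20). The 10 genes of TFEB and its regulators had a median of -0.01, with Fnip1 at -0.20 (SE 0.18), Rragc at 0.14 (SE 0.14), Rragd at -0.12 (SE 0.18) and Flcn at 0.12 (SE 0.19). The transcripts of tagging and of TFEB thus overlapped between genotypes in each named gene.

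The 11 genes listed with the lysosomal membrane had a median of 0.05. Among them Npc1 and Npc2, which take part in cholesterol export, did not overlap between genotypes. Npc1 was lower in the knockout, at -0.56, -0.67 and -0.65 against -0.84, -1.03 and -0.81, by -0.26 (SE 0.14). Npc2 was higher, at 2.35, 2.47 and 2.52 against 2.56, 2.56 and 2.54, by 0.11 (SE 0.13). Both missed the threshold, with an adjusted p of 0.677 for Npc1 and 0.9997 for Npc2 in limma. Ctns, the cystine exporter, differed by 0.16 (SE 0.15) and Cln3 by -0.14 (SE 0.16). In the proton pump, 7 of 8 subunits were nominally higher with a median of 0.07, where 36.3% of all genes tested were higher. The subunits' median was 0.25 on the slide with replicate 1 and -0.03 on the slide with replicates 2 and 3. Atp6v1h led at 0.33 (SE 0.21), followed by Atp6v1a at 0.13 (SE 0.15), Atp6ap1 at 0.09 (SE 0.15) and Atp6ap2 at 0.07 (SE 0.15).

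Mannosidases outside the lysosome and enzymes that strip glycans in the cytosol, 13 genes, had a median of -0.00. Engase, a cytosolic enzyme that cuts the N-glycan core, stood at 0.26, 0.43 and 0.43 in wild type and at 0.24, -0.18 and 0.04 in the knockout. All knockout arrays were below the wild-type arrays, array 1 narrowly, and the difference of -0.34 (SE 0.17) had an adjusted p of 0.648 in limma. Edem2, Edem1 and Edem3, which help clear misfolded glycoproteins from the endoplasmic reticulum, differed by -0.23 (SE 0.21), 0.23 (SE 0.25) and 0.14 (SE 0.17), with overlapping groups.

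**Figure D3:**
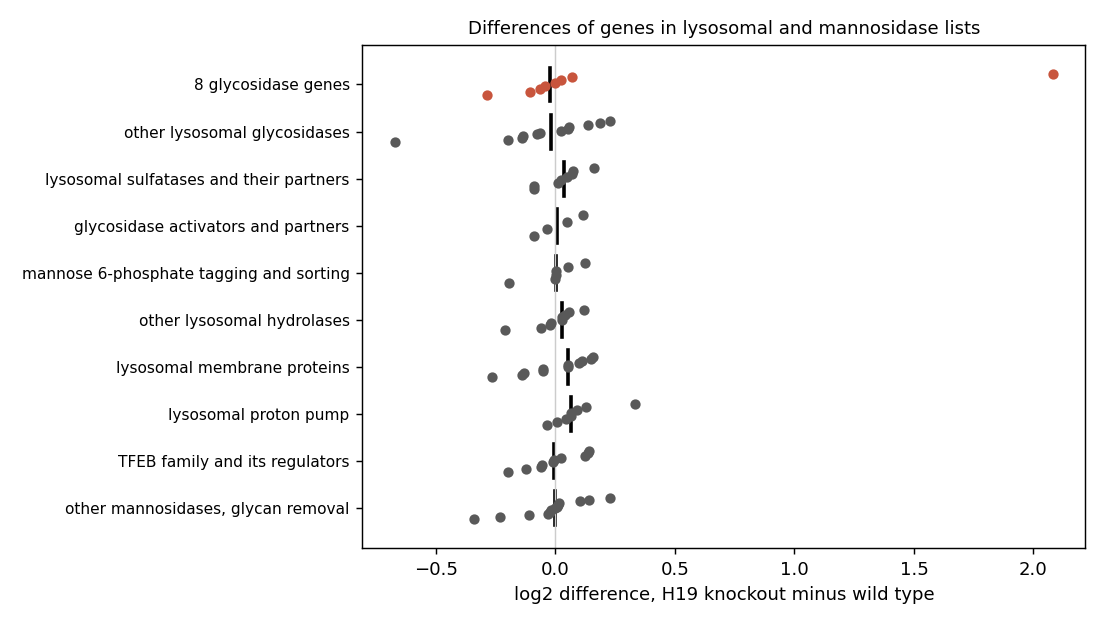
Log2 differences, H19 knockout minus wild type, of the 8 glycosidase genes (red) and of 81 genes in 9 lysosomal and mannosidase lists (grey); each point is a gene and each black line a list's median. Manba stands at 2.08, and the highest of the 81 other genes is Atp6v1h at 0.33.

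Genes beside Manba on chromosome 3 (mm9) were read as well. Within 500 kb of its probe the files held 20 other probes of 15 genes, of which 14 probes of 10 genes were bright enough to be kept. Their differences ran from -0.62 to 0.53, none passed the adjusted threshold in limma, and the lowest adjusted p was 0.646. Nfkb1, an NF-kappaB subunit and the nearest gene with a kept probe, differed by 0.19 (SE 0.31) at 13.5 kb and by -0.35 (SE 0.26) at 20.5 kb. Ube2d3, a ubiquitin-conjugating enzyme on the other side, differed by -0.08 (SE 0.19) and 0.24 (SE 0.17).

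The probes of Cisd2, an iron-sulfur protein of the endoplasmic reticulum and mitochondria, disagreed. At -164 kb one stood at 1.86, 2.05 and 2.17 in wild type and at 2.76, 2.34 and 2.57 in the knockout, a difference of 0.53 (SE 0.18) without overlap. The other, at -160.1 kb, differed by 0.07 (SE 0.21) and overlapped, and it was the one tested for the gene (adjusted p of 0.9997 in limma). Bank1 differed by -0.48 (SE 0.36) and -0.62 (SE 0.30), Slc9b2 by -0.52 (SE 0.35), Bdh2 by 0.39 (SE 0.43), Slc39a8 by -0.21 (SE 0.34), Gm16500 by -0.09 (SE 0.19), Cenpe by -0.05 (SE 0.35) and 2810428J06Rik by 0.03 (SE 0.38). Probes of Gm6151, Slc9b1, 4930539J05Rik, Gm9799 and 4933401H06Rik, 6 in all, were too dim to keep.

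**Figure D4:**
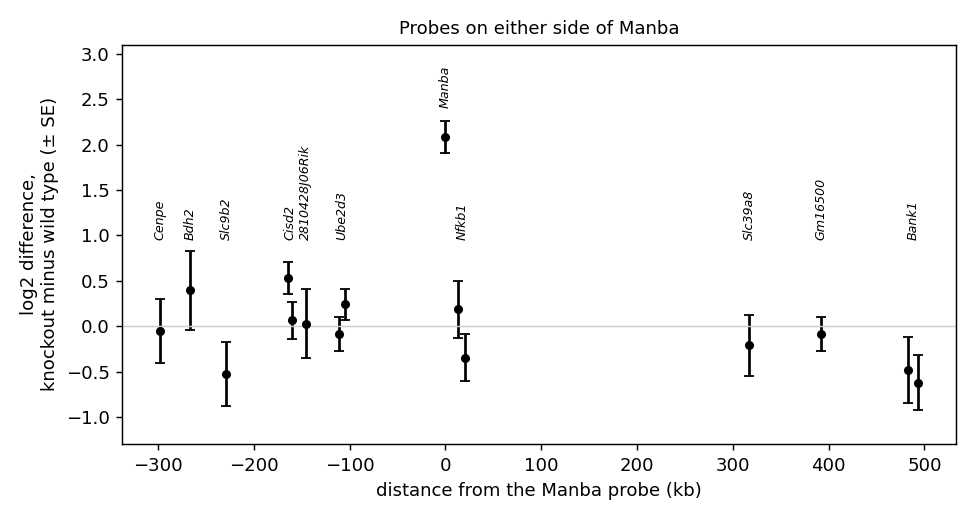
Log2 difference, H19 knockout minus wild type, with its SE, of the Manba probe and of the 14 kept probes within 500 kb, by distance from the Manba probe in kb on chromosome 3. The Manba probe stands at 2.08 and the others lie between -0.62 and 0.53.

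The 10 genes whose signal ran most like Manba's over the 6 arrays included Cyp27a1, Plaat1, Slc8a2, Zfp566, Copb1, Parp3, Mthfsl, Tmem100 and Poc1a, with Pearson's r from 0.966 for Poc1a to 0.996 for Cyp27a1. Any gene that separates the genotypes scores high here, since the 6 arrays share the gap between 3 and 3, and H19 itself had an r of -0.983. Sizes differed widely. Plaat1, a phospholipid-modifying enzyme, stood at -0.95, -0.67 and -0.07 in wild type and at 3.53, 2.05 and 2.45 in the knockout, a difference of 3.24 (SE 0.41), with an adjusted p of 0.225 in limma. Tmem100 differed by 2.34 (SE 0.22), with an adjusted p of 0.0514, and Copb1, a coat protein subunit, by 0.20 (SE 0.13). Cyp27a1, a mitochondrial sterol hydroxylase, differed by 0.56 (SE 0.13). The r of the 7 other glycosidases with Manba ran from -0.709 for Man2b2 to 0.390 for Gaa.

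Signal of other cell types moved between these arrays too. All 11 macrophage markers were nominally lower in the knockout, with a median of -0.58 and a summed linear signal of 46.9 to 63.2 in wild type and 29.6 to 62.4 in the knockout. All 8 fibroblast markers were nominally higher, where 36.3% of all genes tested were. Their median was 0.59, and their summed signal was 111 to 235 against 162 to 383. By slide, the fibroblast median was -0.75 with replicate 1 and 1.28 with replicates 2 and 3. In knockout arrays 1, 2 and 3 the fibroblast sum was 162, 383 and 208 and the macrophage sum 29.6, 62.4 and 31.2. Manba stood there at 2.96, 2.57 and 2.68. In wild-type arrays 1, 2 and 3 the fibroblast sum was 235, 150 and 111 and the macrophage sum 46.9, 48.8 and 63.2. Manba stood there at 0.51, 0.62 and 0.85. The macrophage and fibroblast sums overlapped between the genotypes. Endothelial (105 to 155 against 102 to 166), smooth muscle (64.0 to 113 against 85.8 to 120) and mesothelial sums (3.96 to 6.03 against 3.61 to 8.65) overlapped as well. The erythroid sum, over 2 of 3 markers, was 2.998 to 52.8 against 1.52 to 74.9. Of 5 lymphocyte markers 2 were bright enough to test, with a sum of 0.17 to 0.45 against 0.29 to 1.67. Their part in the level of Manba was not tested beyond these values.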

How the data were processed

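Each of the 6 samples has 1 file of Agilent Feature Extraction 10.7.3.1 output, per the submitters' processing notes, with mm9 probe positions per the file headers. The deposited values used are the background-subtracted processed intensity of each spot. The deposited value table held, per array, the same ranking as the scanner intensity (rank correlation 1) with a median of 69.7 in every column. The authors' scaling is not stated there, and the table was used only as an alternative. Its counts and differences equalled those from quantile normalization, so it is not a separate alternative to that.

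The log2 processed intensity was taken minus the array's 75th percentile over non-control spots. Outlier-flagged spots were left out, spots averaged per probe, and probes kept that were well above background on at least 3 of 6 arrays; a gene is its brightest kept probe. Symbols were updated through RefSeq GRCm38.p6, used for names and promoters. limma 3.58.1 (R 4.3.3; lmFit, eBayes) compared the genotypes with Benjamini-Hochberg adjustment over 21888 genes, and was tested on simulated data. With 3 arrays against 3 an exact permutation test of 1 gene cannot go below a p of 0.10, so none was run, and 3 arrays per genotype limit the precision.

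Members and lists were chosen with earlier results of these data known. Named are the 8 genes, up to 4 genes per list by smallest p and every gene past the threshold, the 10 genes most correlated with Manba, all genes within 500 kb of its probe, and H19; some genes that this rule names are not reported here. Alternatives changed the background correction, scaling, filter, probe rule, blocks, prior, threshold and arrays; the percentile over probes was added after seeing the data.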

Additional observations from a re-analysis of the deposited data

How the results depend on the processing

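The difference of Manba kept its direction in all settings tried, from 1.97 to 2.51, the latter scaled to the median of all probes in place of the 75th percentile. Of the 8 genes, 0 and not 1 passed limma's adjusted threshold with no filter on dim probes, with slide as a block, and with the replicate block; leaving out 1 array gave 0 to 1, and 0 without wild-type array 1 or 2 or knockout array 1, 2 or 3. Of the 7 other genes 0 passed in every setting, and 1 had an unadjusted p under 0.05 in limma, without knockout array 2. Over all genes 7 were called. That count was 3 with quantile normalization (2 higher, 1 lower), and the deposited values gave the same results. It was 118 when arrays were scaled to their median (101 higher, 17 lower). It was 1 with no filter, 1 with the slide block, and 1 to 10 with 1 array left out. With the replicate block it was 1, and the adjusted p of Manba in limma was 0.213. Same-numbered arrays deviated with correlations of -0.217, -0.051 and 0.037. These show no sign of pairing by number, but with 3 arrays per genotype they cannot exclude it. The percentile over probes, chosen after seeing the data, gave 8 genes and 2.10 for Manba. The cause of these shifts was not tested. Manba rests on 1 probe and 1 spot per array, and 3 arrays per genotype set the width of every interval.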
